A study of Homo sapiens with 66 samples.

Results

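The ERBB receptors and their ligands were followed in A375 cells, a human BRAF-mutant melanoma line, as 10 genes among the 58721 gene IDs of each deposited count table. The 4 receptors are EGFR, ERBB2, ERBB3 and ERBB4, and the 6 ligands are NRG1, HBEGF, AREG, EREG, TGFA and BTC. They were chosen by name, as the family and the ligands that bind it, and all 10 were found by symbol.

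The study asked how loss of a subunit of Mediator, a bridge between DNA-bound regulators and RNA polymerase II, acts on the state of melanoma cells. In the Mediator experiment, cells carried 1 of 2 guides against MED12, MED19 or MED23, or a control guide against GFP, and each was treated for 24 h with 1 µM of the BRAF inhibitor vemurafenib or with DMSO. In the SOX10 experiment, cells with MED23 guide 1 or the control guide overexpressed SOX10 or carried an empty vector. In the HDAC3 experiment, cells lacked MED23 and HDAC3 together, HDAC3 alone or MED23 alone, or were control cells, and the labels name no treatment for this and the SOX10 experiment. Every group has 3 libraries, which makes 66 libraries in 22 groups, and every group shares the A375 background. The labels do not say whether the knockout cells were clones or pools, nor whether the libraries of a group came from separate cultures, so p-values measure the spread between libraries, which may be technical.

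ERBB receptors are tyrosine kinases of the cell surface that signal in pairs. EGFR binds the ligands TGFA, HBEGF, AREG, EREG and BTC, while ERBB3 and ERBB4 bind neuregulins such as NRG1. HBEGF, EREG and BTC also bind ERBB4. ERBB2 has no known ligand and is the favoured partner of the other receptors, and ERBB3 has very weak kinase activity and recruits phosphoinositide 3-kinase. Ligands are made as membrane precursors and are cut free by ADAM proteases. In melanoma, ERBB3 belongs to the genes of the melanocyte and neural crest lineage, and EGFR is typical of dedifferentiated cells.

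Promoter windows of 300 bases, 250 before and 50 after the start site, were read from RefSeq (GRCh38.p14) for the genes whose changes are set side by side below. AREG, EREG and BTC are shown because they lie in the same ligand cluster of chromosome 4, where AREG and BTC moved in opposite directions under vemurafenib, and EGFR because it changed in most comparisons. Of the 10 genes, 8 had an entry, and ERBB3 and NRG1 had none. EREG (chr4:74364895-74365194, + strand), AREG (chr4:74444886-74445185, + strand), BTC (chr4:74794474-74794773, - strand) and both EGFR windows (chr7:55018767-55019066 and chr7:55109589-55109888, + strand) follow, 5′ to 3′, with matches to the motifs searched in capitals.
EREG: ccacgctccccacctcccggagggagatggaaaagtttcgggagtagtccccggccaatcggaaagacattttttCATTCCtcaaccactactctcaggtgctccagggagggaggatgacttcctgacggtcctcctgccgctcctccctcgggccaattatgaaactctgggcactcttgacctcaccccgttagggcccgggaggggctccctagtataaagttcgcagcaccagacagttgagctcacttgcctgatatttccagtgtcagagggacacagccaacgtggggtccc
AREG: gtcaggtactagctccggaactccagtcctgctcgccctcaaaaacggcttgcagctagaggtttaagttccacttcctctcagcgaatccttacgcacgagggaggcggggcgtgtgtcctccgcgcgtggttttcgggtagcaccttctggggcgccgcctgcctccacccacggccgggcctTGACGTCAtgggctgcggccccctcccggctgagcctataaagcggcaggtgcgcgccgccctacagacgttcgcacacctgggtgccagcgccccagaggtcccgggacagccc
BTC: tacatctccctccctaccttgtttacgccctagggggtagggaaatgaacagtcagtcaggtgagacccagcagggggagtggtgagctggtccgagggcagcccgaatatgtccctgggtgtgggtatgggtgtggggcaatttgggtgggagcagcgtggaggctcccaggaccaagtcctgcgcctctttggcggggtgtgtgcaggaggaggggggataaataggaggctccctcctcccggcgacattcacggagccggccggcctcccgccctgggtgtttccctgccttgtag
EGFR, upstream start: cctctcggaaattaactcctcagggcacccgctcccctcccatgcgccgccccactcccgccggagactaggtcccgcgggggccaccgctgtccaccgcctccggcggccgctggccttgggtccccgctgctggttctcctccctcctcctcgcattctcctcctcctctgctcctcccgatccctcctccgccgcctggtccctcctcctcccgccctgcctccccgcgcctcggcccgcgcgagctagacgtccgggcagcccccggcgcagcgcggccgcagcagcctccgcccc
EGFR, internal start: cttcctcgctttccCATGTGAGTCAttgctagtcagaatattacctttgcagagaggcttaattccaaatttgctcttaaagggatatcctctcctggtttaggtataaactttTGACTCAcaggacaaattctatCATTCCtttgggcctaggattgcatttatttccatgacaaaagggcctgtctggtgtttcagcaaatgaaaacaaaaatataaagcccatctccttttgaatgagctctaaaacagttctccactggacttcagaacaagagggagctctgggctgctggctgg

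The motifs searched on both strands were AP-1 (TGANTCA), the cAMP response element (TGACGTCA), TEAD (GGAATG), SOX (ACAAAG and ACAATG), E-boxes (CATGTG and CACGTG) and ETS (CCGGAAG). They occurred in 7.71%, 1.85%, 14.0%, 16.1%, 10.8%, 11.1%, 7.26% and 10.3% of all 35116 promoter windows of this length. The AREG window holds the cAMP response element, whose letters read the same on both strands, with its first base at position -65 from the start site. The EREG window holds a TEAD match on the opposite strand at position -175. In the internal EGFR window, which lies inside the gene, 2 AP-1 matches, a TEAD match on the opposite strand and an E-box that overlaps the first AP-1 match were found. The upstream EGFR window, with 75.3% G and C, and the BTC window hold no match to these letters. Among the windows not printed, a TGFA window holds SOX (ACAAAG) and E-box (CATGTG) matches and the ERBB2 window AP-1 and ETS matches. Those of ERBB4 and HBEGF hold none. A match describes the letters only.

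Libraries of the Mediator experiment held 65.88 to 211.79 M counted reads, those of the SOX10 experiment 24.87 to 30.77 M, and those of the HDAC3 experiment 58.84 to 106.19 M. Each experiment was normalised separately. The targeted genes checked the labels: mean levels in the knockout cells, as a percent of their control, were 18.3% to 28.7% for MED12, 45.8% to 54.6% for MED19 and 42.9% to 51.9% for MED23 over all experiments, and 51.0% and 58.6% for HDAC3. A transcript level says nothing of whether the protein was lost. SOX10 itself reached only 600.2 CPM with the SOX10 vector, against 525 CPM with the empty vector in control cells, and 429 against 246 CPM in MED23 knockout cells, and reads of the vector cannot be told apart from reads of the gene. Summed levels of 9 melanocytic and neural crest markers ran from 161.1 to 2318 CPM over the Mediator libraries, those of 5 epithelial markers from 1.81 to 26.97 CPM, those of 3 endothelial markers from 0.842 to 6.65 CPM and those of 5 blood markers from 0.0482 to 2.83 CPM, and TYR stayed below 1 CPM in every library. In these bulk samples fewer cells with a transcript and less of it per cell cannot be told apart.

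Levels are given as CPM, counts per M of the library size after scaling for library composition, and per kilobase of exon (RPKM) where genes are compared with each other. A gene is said to have risen or fallen where edgeR's quasi-likelihood test gave a Benjamini-Hochberg adjusted p under 0.05 over all genes tested and the change was at least 2-fold. Log2 fold changes are given with their SE and group means with their SD.

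In control cells with DMSO, ERBB3 made up 88.3% of the summed receptor RPKM, ERBB2 10.0%, EGFR 1.69% and ERBB4 0.0228%. Among the ligands, TGFA made up 97.4% of the summed RPKM (152 RPKM), ahead of HBEGF with 1.64% and AREG with 0.694%. BTC, NRG1 and EREG each lay below 1%. These cells carried transcripts mainly of the neuregulin receptor ERBB3 and of the EGFR ligand TGFA, with little NRG1 (0.167 RPKM) and little EGFR (1.22 RPKM).

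Vemurafenib changed 8 of the 10 genes in control cells, where 29.7% of the 27453 genes tested were called. EREG passed the filter on low counts only through its DMSO libraries, of which 18 of 21 reached the filter level of 0.0888 CPM, against 0 of 21 drug libraries, so that it had to be lower with the drug. Without it 7 of 9 genes were called, 4 higher and 3 lower. Among the receptors, ERBB2, ERBB3 and ERBB4 rose and EGFR fell. Among the ligands, BTC rose while TGFA and AREG fell, and HBEGF and NRG1 did not pass. The median log2 fold change of the 9 genes was 0.06, beside 0.11 over all genes tested.

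EGFR had 4.36, 4.38 and 4.73 CPM with vemurafenib, against 15.1, 15.2 and 15.7 CPM with DMSO, a log2 fold change of -1.77 ± 0.06 (adjusted p = 3.98e-31). ERBB3 had 1256, 1248 and 1268 CPM with vemurafenib, against 568, 581 and 584 CPM with DMSO (1.12 ± 0.06 in log2, adjusted p = 6.16e-23). Neither receptor had overlapping groups, so that the libraries with the drug held less EGFR and more ERBB3 than any library without it. The summed melanocytic and neural crest markers averaged 2281.5 CPM with the drug and 1007.1 CPM with DMSO, and the epithelial, endothelial and blood markers 26.4, 6.35 and 2.40 CPM with the drug and 10.7, 2.04 and 0.128 CPM with DMSO. Their part in the rise of ERBB3 was not tested. ERBB2, the partner of both, had 159, 151 and 157 CPM with the drug and 71.3, 76.3 and 76.6 CPM with DMSO (1.06 ± 0.04 in log2), just past the 2-fold limit, and 0.96 without replicate 1. ERBB4, the other neuregulin receptor, was near the limit of detection, with 138, 106 and 150 reads per library against 24, 24 and 47 reads (2.38 ± 0.41 in log2, adjusted p = 1.19e-06). Its groups did not overlap in CPM.

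TGFA had 88.0, 84.7 and 87.9 CPM with vemurafenib, against 762, 741 and 756 CPM with DMSO (-3.12 ± 0.04 in log2, adjusted p = 8.57e-50). Every drug library held less than any DMSO library of this most abundant ligand. AREG gave 4, 7 and 4 reads per library with the drug and 155, 300 and 352 reads with DMSO (-5.34 ± 0.34 in log2, adjusted p = 4.07e-19), a fold that rests on a handful of reads in the drug libraries. Its relative EREG gave 5, 0 and 4 reads with the drug and 20, 12 and 30 reads with DMSO, and is given as a description only. BTC, which binds EGFR and ERBB4, had 2.26, 2.06 and 2.60 CPM with vemurafenib and 0.674, 0.523 and 0.552 CPM with DMSO (2.01 ± 0.17 in log2). All 3 drug libraries were above the DMSO libraries. HBEGF had 8.02 ± 0.335 CPM with the drug and 7.71 ± 0.259 CPM with DMSO (adjusted p = 0.498), and NRG1 1.36 ± 0.277 and 1.89 ± 0.115 CPM, a log2 fold change of -0.47 ± 0.14 that stayed under 2-fold.

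EREG, AREG and BTC lie within 429.5 kb of chromosome 4, and with EPGN, a further EGFR ligand that did not pass the filter on low counts, the cluster spans 486.2 kb. In the order of the chromosome EREG and AREG are 56.4 kb apart on the plus strand, and BTC follows 289.8 kb further on the minus strand. Neighbours in the cluster thus moved in opposite directions under the drug, AREG down and BTC up.

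**Figure D1:**
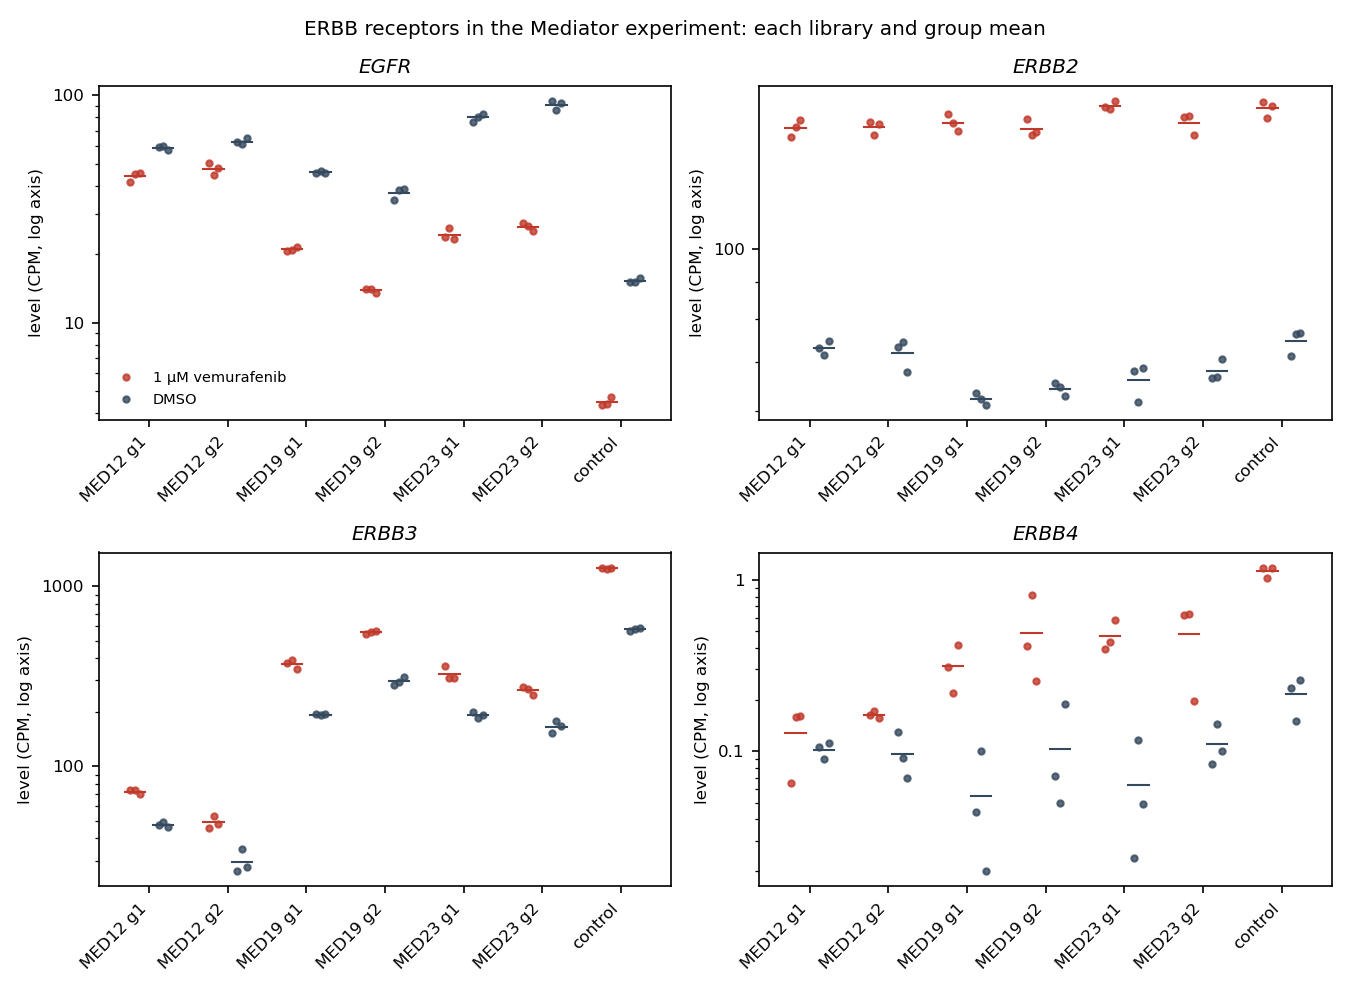
CPM (log axis) of the 4 receptors in each library of the Mediator experiment, by guide (MED12, MED19 and MED23 guides 1 and 2, then the control guide), with vemurafenib in red and DMSO in blue; points are libraries and lines group means. At the same treatment, EGFR lies above control with every knockout guide and ERBB3 below it, while ERBB2 is higher with the drug under every guide.

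In DMSO, all 3 Mediator knockouts raised EGFR and lowered ERBB3 and ERBB4, while ERBB2 passed the threshold in none. Knockout of MED12 changed 7 of the 10 genes (4 higher, 3 lower), where 15.6% of all genes tested were called. Knockout of MED19 changed 4 (2 and 2), where 6.30% were called, and knockout of MED23 changed 5 (2 and 3), where 6.79% were called. The median log2 fold change of the 10 genes was 0.06 for MED12, -0.04 for MED19 and 0.09 for MED23, beside 0.00, 0.00 and 0.01 over all genes. The 3 knockouts share their control libraries.

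EGFR had 59.2, 59.7 and 57.6 CPM with MED12 guide 1 and 62.1, 60.9 and 65.0 CPM with guide 2, against 15.1, 15.2 and 15.7 CPM in control cells. With the MED19 guides it had 45.5, 46.4 and 45.6 and 34.7, 38.5 and 38.6 CPM, and with the MED23 guides 76.7, 80.2 and 83.0 and 94.3, 86.0 and 92.7 CPM. Every knockout library thus lay above every control library, and MED23 knockout cells held the most. The log2 fold changes were 1.99 ± 0.04 (adjusted p = 8.73e-38), 1.43 ± 0.04 (adjusted p = 3.15e-31) and 2.48 ± 0.04 (adjusted p = 1.11e-40) for MED12, MED19 and MED23.

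ERBB3 had 47.4, 49.2 and 46.2 CPM with MED12 guide 1 and 26.2, 35.0 and 27.6 CPM with guide 2, against 568, 581 and 584 CPM in control cells. The MED19 guides gave 194, 192 and 195 and 285, 294 and 312 CPM, and the MED23 guides 201, 185 and 192 and 153, 178 and 168 CPM. No knockout library reached the control, and MED12 knockout cells kept the least. The summed melanocytic and neural crest markers averaged 225.2 and 187.7 CPM with the MED12 guides, 557.1 and 705.9 CPM with the MED19 guides and 454.0 and 425.1 CPM with the MED23 guides, against 1007.1 CPM in control cells. Their part in the fall of ERBB3 was not tested. Log2 fold changes were -3.95 ± 0.05 (adjusted p = 2.06e-47), -1.27 ± 0.05 (adjusted p = 3.14e-27) and -1.69 ± 0.05 (adjusted p = 1.55e-32), and -0.96 with MED19 guide 2 alone, under 2-fold. An uncharacterised gene, AC034102.2, shares exon bases with ERBB3 on the same strand, and EGFR-AS1, MIEN1 and PGAP3 overlap EGFR or ERBB2 on the opposite strand; the strand setting of the counting is not given, so reads of these neighbours may be counted in part.

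HBEGF, which binds EGFR and ERBB4, had lowest 44.5, median 46.5 and highest 51.3 CPM over the 6 MED12 knockout libraries, against 7.92, 7.79 and 7.42 CPM in control cells (2.62 ± 0.07 in log2, adjusted p = 2.58e-35). MED12 knockout raised it in every library, whereas with MED19 and MED23 knockout the changes of 0.88 ± 0.06 and 0.37 ± 0.06 stayed under 2-fold. TGFA had lowest 145, median 172 and highest 184 CPM in MED12 knockout cells and 762, 741 and 756 CPM in control cells (-2.18 ± 0.03 in log2, adjusted p = 4.86e-48). With MED19 and MED23 knockout its log2 change was -0.75 ± 0.03 and -0.73 ± 0.03, under 2-fold. These differences between knockouts were not tested.

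NRG1, the ligand of ERBB3 and ERBB4, had lowest 3.23, median 3.81 and highest 4.49 CPM with MED12 knockout and lowest 4.04, median 4.26 and highest 4.50 CPM with MED23 knockout, against 1.86, 1.79 and 2.01 CPM in control cells. It rose by 1.03 ± 0.11 (adjusted p = 3.02e-11) and 1.18 ± 0.11 (adjusted p = 1.48e-12) in log2, while with MED19 knockout it was -0.07 ± 0.11. The change with MED12 knockout was 0.89 with guide 1 alone and 0.93 without replicate 1. AREG had lowest 0.540, median 0.699 and highest 0.793 CPM with MED23 knockout, against 1.51, 1.87 and 1.96 CPM in control cells (-1.39 ± 0.19 in log2, adjusted p = 2.24e-08), and 0.14 ± 0.18 and -0.01 ± 0.18 in log2 with MED12 and MED19 knockout. BTC had lowest 2.54, median 3.23 and highest 3.58 CPM with MED12 knockout and 0.674, 0.523 and 0.552 CPM in control cells, and it rose by 2.46 ± 0.15 in log2 with MED12 and by 1.11 ± 0.16 with MED19 knockout. ERBB4 was read only 2, 10 and 8 times in the libraries of MED23 guide 1, against 24, 24 and 47 times in control libraries, and EREG passed in no knockout in DMSO. The ERBB4 calls were lost (adjusted p 0.0824 to 0.117) without replicate 1 or 3 for MED23, without replicate 3 for MED12 and with guide 2 alone for MED19 and MED23. With MED19 knockout the ERBB4 groups also overlapped, since guide 2 reached 0.189 CPM and the lowest control library held 0.150 CPM.

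**Figure D2:**
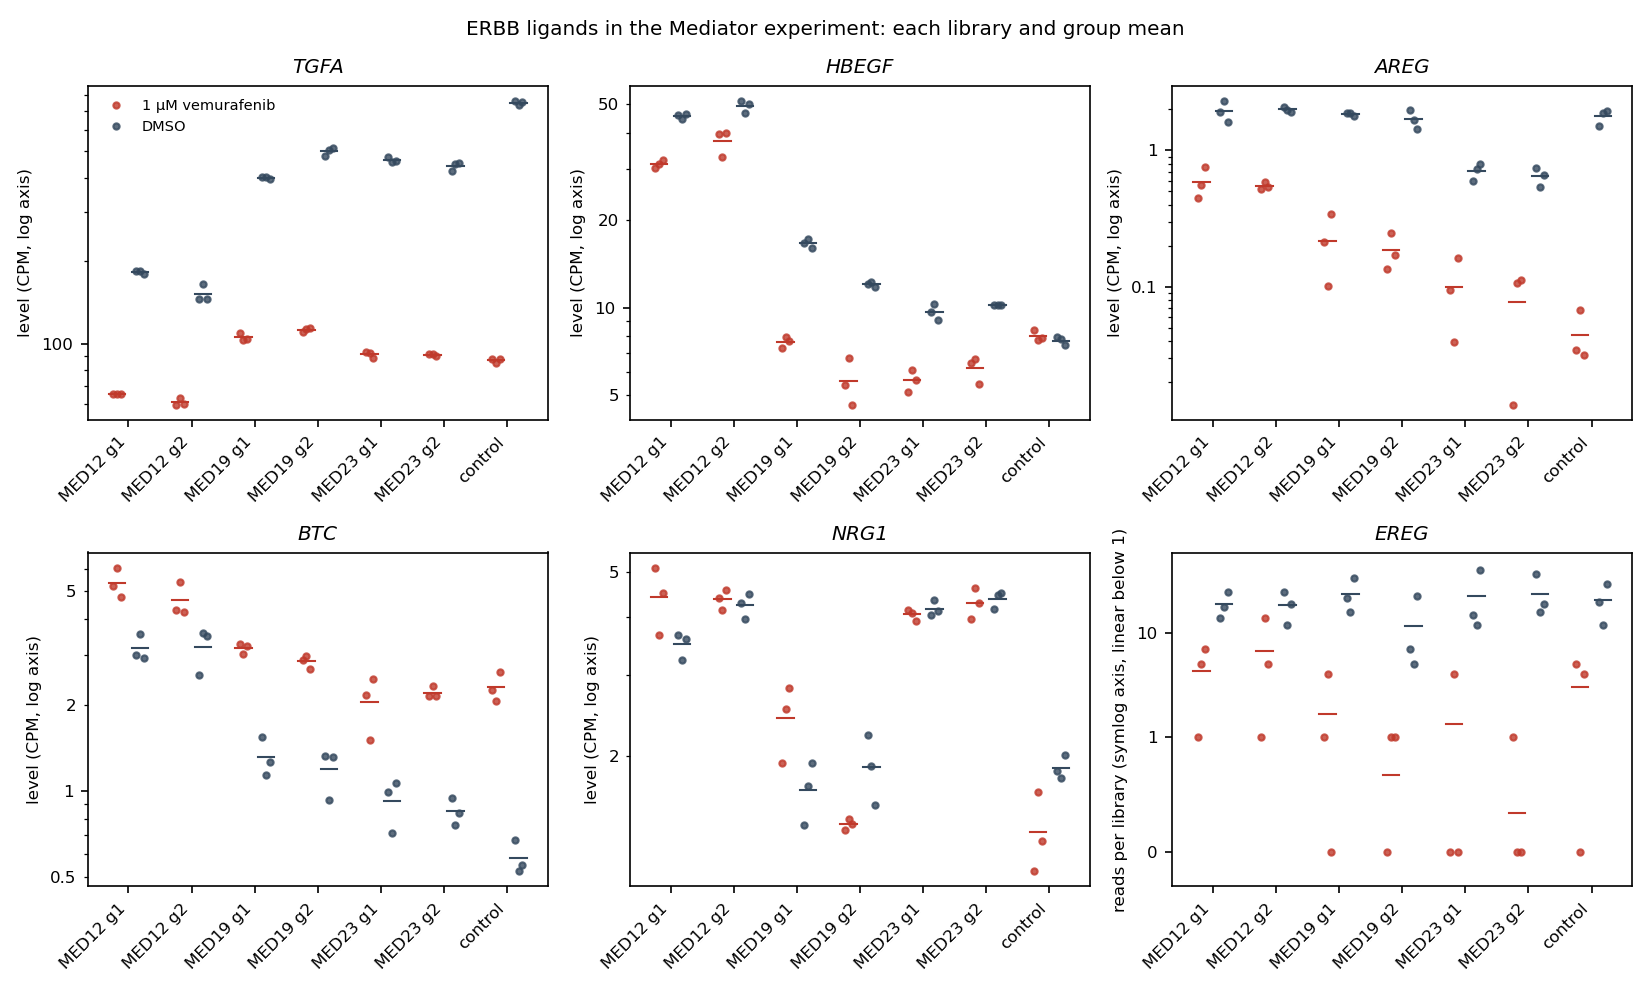
The 6 ligands in each library of the Mediator experiment, by guide, with vemurafenib in red and DMSO in blue; 5 panels show CPM on a log axis and the EREG panel shows reads per library. TGFA and AREG drop with the drug under every guide, and HBEGF stands high with both MED12 guides.

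With vemurafenib present, EGFR again rose and ERBB3 and ERBB4 fell in all 3 knockouts relative to control cells with the drug. MED12 knockout changed 7 of the 10 genes (5 higher, 2 lower), where 21.0% of genes were called, MED19 knockout 4 (2 and 2), where 8.11% were called, and MED23 knockout 4 (2 and 2), where 11.6% were called. EGFR had lowest 41.4, median 45.4 and highest 50.5 CPM with MED12 knockout, against 4.36, 4.38 and 4.73 CPM in control cells with the drug (3.35 ± 0.05 in log2). All knockout libraries were above the control libraries, with log2 fold changes of 1.93 ± 0.05 for MED19 and 2.50 ± 0.05 for MED23. ERBB3 had lowest 45.5, median 61.6 and highest 73.7 CPM with MED12 knockout and 1256, 1248 and 1268 CPM in control cells (-4.40 ± 0.05 in log2), and log2 fold changes of -1.47 ± 0.05 and -2.10 ± 0.05 with MED19 and MED23 knockout. The melanocytic and neural crest markers averaged 201.3 and 166.6 CPM with the MED12 guides, 632.8 and 927.9 CPM with the MED19 guides and 579.4 and 506.5 CPM with the MED23 guides, against 2281.5 CPM in control cells with the drug. NRG1 rose with MED12 (1.69 ± 0.12) and MED23 (1.62 ± 0.12) knockout, and HBEGF with MED12 knockout (2.09 ± 0.07). BTC rose with MED12 knockout (1.11 ± 0.13, and 0.92 without replicate 2). AREG rose with MED12 and MED19 knockout (3.70 ± 0.35 and 2.14 ± 0.41 in log2), against control libraries of 4, 7 and 4 reads.

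The drug itself changed 4 of the 10 genes in MED12 knockout cells, where 15.7% of genes were called, 8 in MED19 knockout cells, where 25.6% were called, and 7 in MED23 knockout cells, where 25.6% were called. EREG is among each of these, and without it they were 3, 7 and 6 of 9 genes. TGFA and AREG fell and ERBB2 rose in all 3, ERBB2 by 1.02 ± 0.03 in MED12 knockout cells and by 0.99 there without replicate 3. EGFR fell in MED19 and MED23 knockout cells (-1.27 ± 0.03 and -1.75 ± 0.03), and in MED12 knockout cells its log2 fold change was -0.40 ± 0.03. EGFR had lowest 41.4, median 45.4 and highest 50.5 CPM with vemurafenib and lowest 57.6, median 60.3 and highest 65.0 CPM with DMSO in MED12 knockout cells. ERBB3 did not pass in any knockout under the drug, at 0.67 ± 0.04, 0.92 ± 0.04 and 0.72 ± 0.04 in log2 for MED12, MED19 and MED23. EREG libraries with the drug held 0 to 14 reads in the knockouts, all below the filter level, so no fold is given.

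Whether the response to the drug differed from that of control cells was tested as an interaction. With MED12 knockout, 5 of the 10 genes differed, where 14.7% of genes were called, with MED19 knockout 3, where 5.13% were called, and with MED23 knockout 1, where 6.35% were called. TGFA fell less with the drug in MED12 and MED19 knockout cells, the difference being 1.73 ± 0.04 (adjusted p = 4.86e-36) and 1.08 ± 0.04 in log2. With MED23 knockout the difference of TGFA was 0.80 ± 0.04 (adjusted p = 3.66e-22), in the same direction and under 2-fold. Its level with the drug was 65.4 and 61.3 CPM with the MED12 guides and 86.9 CPM in control cells, and with DMSO 182 and 152 CPM with the MED12 guides and 753 CPM in control cells. EGFR likewise differed with MED12 knockout (1.36 ± 0.07), and with MED19 and MED23 knockout the difference was 0.50 ± 0.07 and 0.02 ± 0.07 in log2. For ERBB3 the difference was -0.46 ± 0.07, -0.20 ± 0.07 and -0.41 ± 0.07 with MED12, MED19 and MED23 knockout, under 2-fold in each. AREG differed with all 3 knockouts (3.56 ± 0.41, 2.16 ± 0.45 and 2.40 ± 0.52), each resting on the few reads of the control libraries with the drug. With the MED23 guides the drug libraries summed to only 22 and 19 AREG reads, against 15 in control cells, and the groups overlapped (adjusted p = 0.0876). In DMSO the AREG level was 0.678 CPM with MED23 knockout and 1.78 CPM in control cells. ERBB4 and BTC differed the other way with MED12 knockout (-1.83 ± 0.53 and -1.36 ± 0.20), and HBEGF with MED19 knockout (-1.18 ± 0.09). The difference of TGFA with MED19 was 0.96 for guide 2 alone, and the ERBB4 call was lost without replicate 1 (adjusted p = 0.0794).

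**Figure D3:**
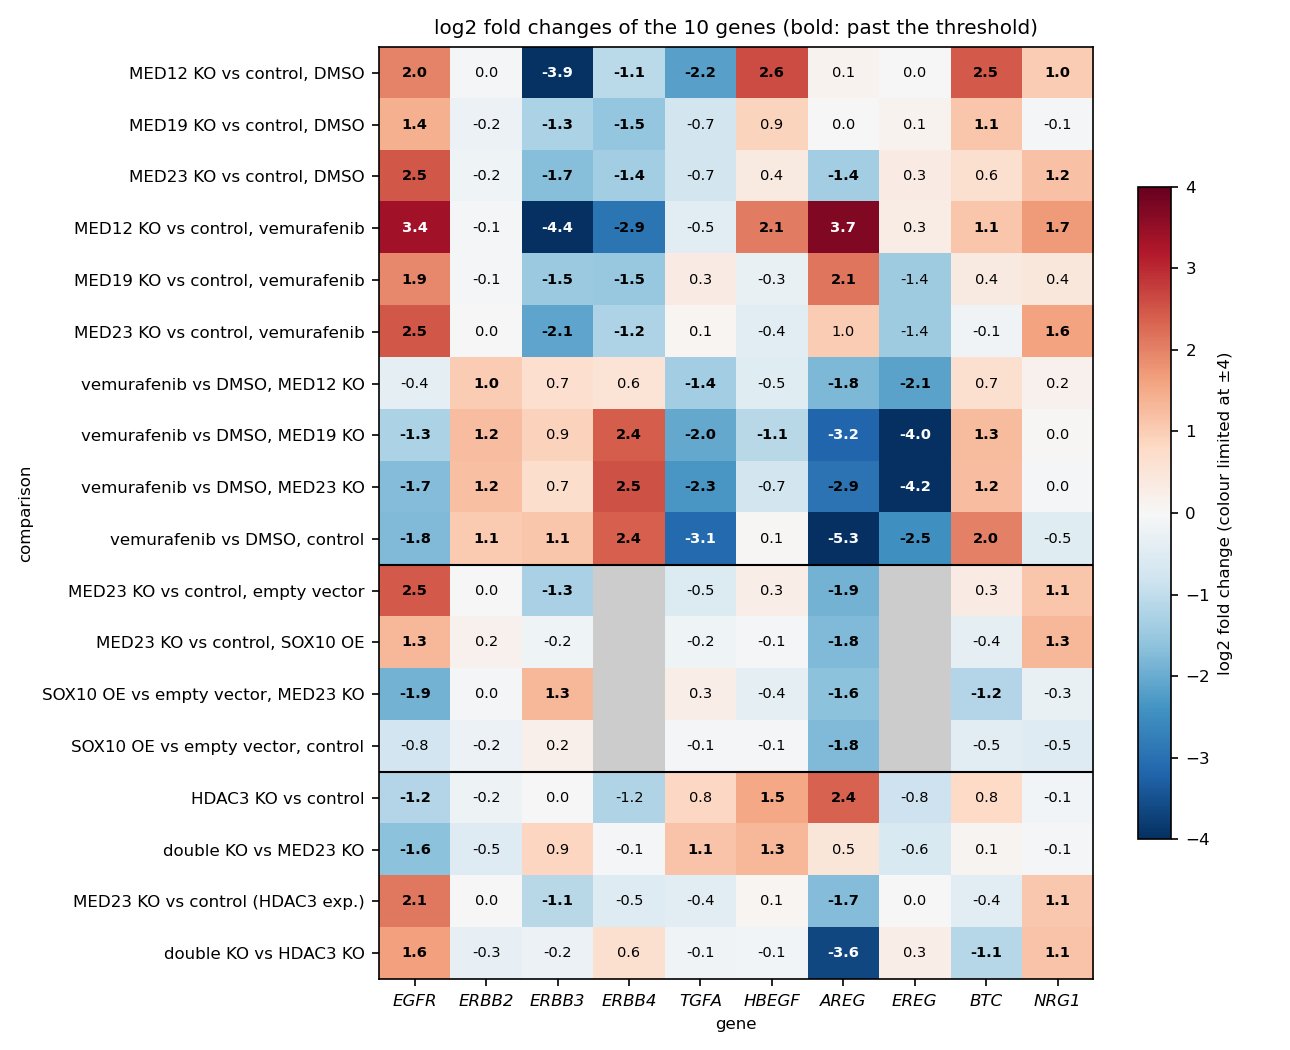
Log2 fold changes of the 10 genes in the pairwise comparisons named at the left, with the group named first over the second; colour stops at 4 in either direction, bold values passed the threshold and grey cells were not tested. EREG passed the filter on low counts only through DMSO libraries, so its bold values under vemurafenib describe the libraries only. EGFR is positive and ERBB3 negative in all 6 Mediator knockout comparisons at the top.

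The balance of EGFR and ERBB3 was taken per kilobase of exon. EGFR stood at 89.2% ± 1.44 and 155% ± 25.9 of the ERBB3 level with the MED12 guides in DMSO, at 17.1% ± 0.306 and 9.07% ± 0.342 with the MED19 guides, and at 30.0% ± 2.12 and 39.8% ± 4.78 with the MED23 guides, against 1.91% ± 0.0270 in control cells. With vemurafenib it was 44.0% ± 3.27 and 70.9% ± 9.79 with the MED12 guides, 4.11% ± 0.323 and 1.81% ± 0.0677 with the MED19 guides, 5.43% ± 0.673 and 7.22% ± 0.0943 with the MED23 guides, against 0.258% ± 0.0102 in control cells. EGFR exceeded ERBB3 only with MED12 guide 2 in DMSO, and the drug moved the balance toward ERBB3 under every guide. ERBB2 became the largest receptor share with the MED12 guides, at 41.5% and 45.6% of summed receptor RPKM in DMSO, against 10.0% in control cells. HBEGF made up 27.8% and 33.0% of summed ligand RPKM there, against 1.64% in control cells.

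**Figure D4:**
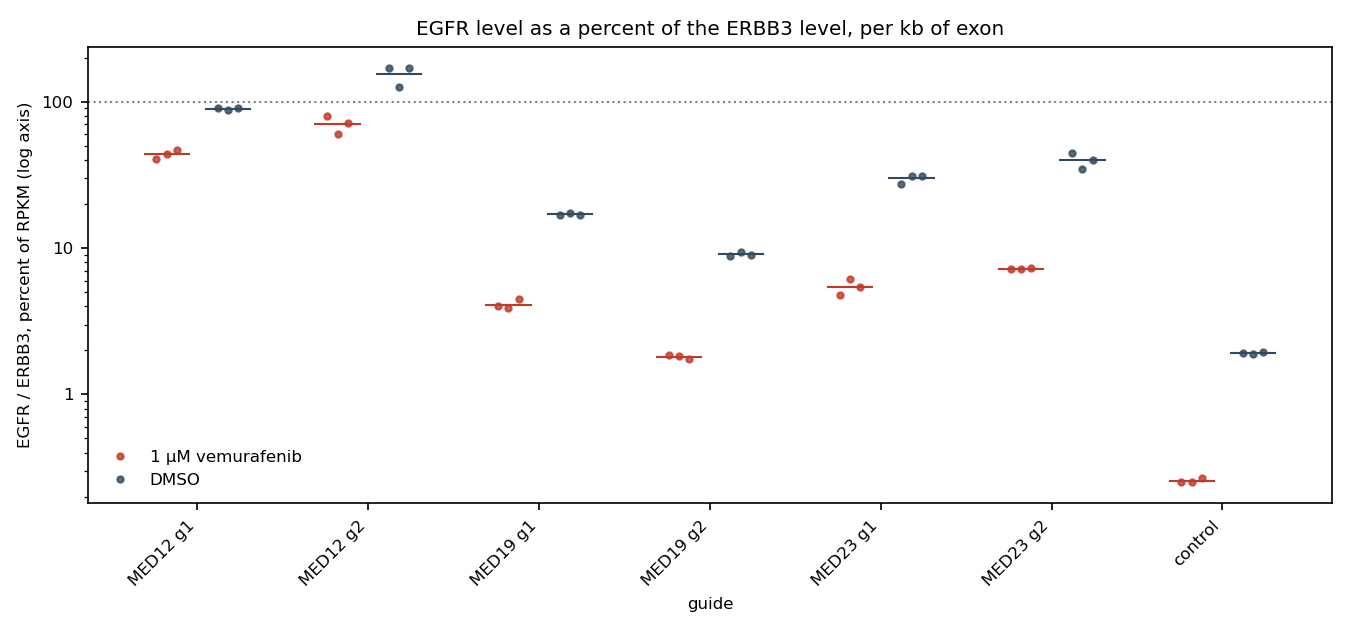
EGFR RPKM as a percent of ERBB3 RPKM (log axis) in each library of the Mediator experiment, by guide, with vemurafenib in red and DMSO in blue; lines are group means and the dotted line marks equal levels. Control cells with the drug are lowest and MED12 guide 2 with DMSO is highest.

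Ordered by level over the 14 groups, EGFR was lowest in control cells with vemurafenib (4.49 CPM), next with MED19 guide 2 and the drug (13.9 CPM) and highest with MED23 guide 2 in DMSO (91.0 CPM). Neighbours in that order had separate ranges except 3 pairs: MED23 guides 1 and 2 with the drug, MED12 guide 1 with the drug and MED19 guide 1 in DMSO, and MED19 guide 1 in DMSO and MED12 guide 2 with the drug. Over the 14 group means, the genes whose log2 levels tracked ERBB3 most closely were FGFR4 (Pearson r = 0.995), ITGB8 (0.988) and S100B (0.982), and those that tracked EGFR were F2RL1 (0.982), BICC1 (0.962) and PTPN14 (0.962), out of 12187 genes. The 14 means share guides and treatments and come from 1 experiment, so these values describe likeness only.

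In the SOX10 experiment ERBB4 and EREG did not pass the filter on low counts, which left 8 of the 10 genes. MED23 knockout with the empty vector changed 4 of them, where 5.51% of genes were called: EGFR and NRG1 rose and ERBB3 and AREG fell, with NRG1 at 1.10 ± 0.18 in log2 and at 0.82 without replicate 2. With SOX10 overexpressed, MED23 knockout changed 3, where 3.30% were called, and ERBB3 was not among them. EGFR (1.34 ± 0.07 in log2) and NRG1 (1.34 ± 0.19) rose there and AREG fell (-1.77 ± 0.31). SOX10 overexpression changed 4 in MED23 knockout cells, where 5.42% were called, and 1 in control cells, where 2.38% were called. In MED23 knockout cells ERBB3 rose and EGFR, AREG and BTC fell, BTC with a change of -1.18 ± 0.29 (adjusted p = 0.00147) in log2, and in control cells AREG fell. The BTC and AREG changes in MED23 knockout cells rest on few reads. Summed over libraries, BTC had 33 reads with SOX10 and 72 with the empty vector, and AREG 25 and 75.

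ERBB3 had 515, 512 and 508 CPM in MED23 knockout cells with the SOX10 vector, against 191, 205 and 213 CPM in those with the empty vector (1.33 ± 0.03 in log2, adjusted p = 2.18e-23). In control cells it had 574, 585 and 576 CPM with the SOX10 vector and 497, 504 and 505 CPM with the empty vector (0.20 ± 0.03 in log2, under 2-fold). The MED23 knockout cells with SOX10 lay just above the control cells with the empty vector. The melanocytic and neural crest markers averaged 660.5 CPM with the SOX10 vector and 425.3 CPM with the empty vector in MED23 knockout cells. In control cells they averaged 909.3 and 809.4 CPM. SOX10 is itself among these markers, at 429.2 and 246.2 CPM in MED23 knockout cells and 600.2 and 524.9 CPM in control cells. Most of the rise of the sum, in both backgrounds, is therefore the overexpressed gene. The part of the markers in the change of ERBB3 was not tested. For ERBB3 the difference between the 2 responses was 1.13 ± 0.05 (adjusted p = 3.57e-17). EGFR had 24.4, 20.6 and 20.7 CPM in MED23 knockout cells with SOX10, against 79.8, 80.8 and 81.7 CPM without it (-1.88 ± 0.05 in log2, adjusted p = 1.35e-22). In control cells it had 8.24, 8.67 and 9.06 CPM with SOX10 and 14.7, 15.5 and 13.9 CPM without (-0.76 ± 0.08 in log2). EGFR also differed between the responses (-1.12 ± 0.09), where 1.55% of genes were called for this test and 2 of the 8 genes passed. The vector raised SOX10 unequally, to 174.3% of the empty-vector level in MED23 knockout cells and 114.3% in control cells. The part of this in the differences of EGFR and ERBB3 was not tested.

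Set against control cells with the empty vector, MED23 knockout cells with SOX10 passed the threshold in 1 of the 8 genes, where 2.78% were called, and in 2 without replicate 3, when NRG1 also passed. The 1 gene called was AREG, with 5, 12 and 8 reads, against 97, 86 and 90 reads (-3.52 ± 0.24 in log2, adjusted p = 4.72e-13). EGFR stayed higher by 0.57 ± 0.06 (adjusted p = 2.25e-08) and NRG1 by 0.81 ± 0.18 (adjusted p = 0.000715) in log2, both under 2-fold. At adjusted p under 0.05, whatever the fold, 5 of the 8 genes passed, where 33.4% of all genes tested did. AREG fell both with MED23 knockout (-1.89 ± 0.19) and with SOX10 overexpression in control cells (-1.75 ± 0.18), and its libraries in the group with both were the lowest. NRG1 had 3.19, 2.96 and 2.36 CPM in MED23 knockout cells with SOX10 and 2.93, 3.88 and 3.57 CPM without it, where the groups overlapped (adjusted p = 0.138), against 1.60, 1.12 and 2.09 CPM in control cells with the empty vector. EGFR stood at 3.09% ± 0.289 of the ERBB3 level in MED23 knockout cells with SOX10 and at 28.8% ± 1.22 without it, against 1.08% ± 0.0505 and 2.11% ± 0.120 in control cells with and without SOX10.

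HDAC3, a histone deacetylase that works within NCOR corepressors, was the target of the last experiment. Its knockout changed 3 of the 10 genes in control cells, where 8.19% of the 21139 genes tested were called: HBEGF and AREG rose and EGFR fell. In MED23 knockout cells it changed 3, where 6.03% were called: HBEGF and TGFA rose and EGFR fell. MED23 knockout alone changed 4, where 4.76% were called, with EGFR and NRG1 higher and ERBB3 and AREG lower. Knockout of both changed 3 against control cells, where 5.00% were called, and MED23 knockout changed 4 in HDAC3 knockout cells, where 6.41% were called. The control columns of this table are named for GFP and were assigned to its control samples by elimination, on which the comparisons with control cells rest.

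EGFR had 19.0, 17.0 and 21.5 CPM in cells lacking both genes, 7.15, 5.49 and 5.78 CPM with HDAC3 knockout and 62.8, 57.8 and 57.5 CPM with MED23 knockout, against 14.8, 12.8 and 13.9 CPM in control cells. HDAC3 knockout lowered it in both settings, with log2 fold changes of -1.63 ± 0.09 (adjusted p = 1.05e-12) in MED23 knockout cells and -1.18 ± 0.10 (adjusted p = 1.07e-09) in control cells, and none of these groups overlapped. ERBB3 had 369, 376 and 379.5 CPM in cells lacking both genes and 216, 208 and 196 CPM with MED23 knockout, against 461, 439 and 426 CPM in control cells. With HDAC3 knockout alone ERBB3 had 475, 434 and 423 CPM, a log2 change of 0.01 ± 0.05 (adjusted p = 0.927). Its log2 change with HDAC3 knockout in MED23 knockout cells, 0.86 ± 0.05 (adjusted p = 2.99e-12), stayed under 2-fold although the groups did not overlap. The difference between these responses was 0.85 ± 0.07 (adjusted p = 3.72e-09), also under 2-fold. The melanocytic and neural crest markers averaged 715.6 CPM in cells lacking both genes, 1281.7 CPM with HDAC3 knockout and 362.9 CPM with MED23 knockout, against 672.7 CPM in control cells, and their part in these changes was not tested.

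AREG had 1.95, 1.42 and 1.57 CPM in cells lacking both genes, 20.1, 19.6 and 21.3 CPM with HDAC3 knockout and 1.25, 0.826 and 1.43 CPM with MED23 knockout, against 3.71, 4.22 and 3.90 CPM in control cells. HDAC3 knockout raised it in control cells (2.37 ± 0.11 in log2, adjusted p = 1.37e-13) and stayed under 2-fold in MED23 knockout cells (0.47 ± 0.16). Of the 10 genes, AREG alone passed the test of this difference (-1.89 ± 0.20, adjusted p = 2.25e-07), where 3.55% of genes were called. HBEGF had 19.0, 19.2 and 19.7 CPM in cells lacking both genes and 21.0, 21.8 and 19.5 CPM with HDAC3 knockout, against 7.14, 7.64 and 8.17 CPM with MED23 knockout and 6.86, 7.27 and 7.37 CPM in control cells. It rose with HDAC3 knockout whether MED23 was present (1.53 ± 0.07) or not (1.34 ± 0.07). TGFA averaged 1141 ± 42.8 CPM in cells lacking both genes and 1246 ± 9.68 CPM with HDAC3 knockout, against 519 ± 6.80 CPM with MED23 knockout and 701 ± 4.08 CPM in control cells. Its log2 change with HDAC3 knockout was 1.14 ± 0.04 in MED23 knockout cells, which passed, and 0.83 ± 0.04 in control cells, under 2-fold. NRG1 rose with MED23 knockout in HDAC3 knockout cells (1.13 ± 0.17) and in control cells (1.09 ± 0.15, and 0.89 without replicate 1). In cells lacking both genes against control cells it was 1.01 ± 0.16, and 0.80 without replicate 1. BTC fell with MED23 knockout in HDAC3 knockout cells (-1.14 ± 0.25, adjusted p = 0.00103), a difference that the interaction did not call (adjusted p = 0.181) except without replicate 2 (adjusted p = 0.0377). BTC was 0.81 ± 0.24 in log2 with HDAC3 knockout in control cells, and passed only without replicate 2 (1.19).

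**Figure D5:**
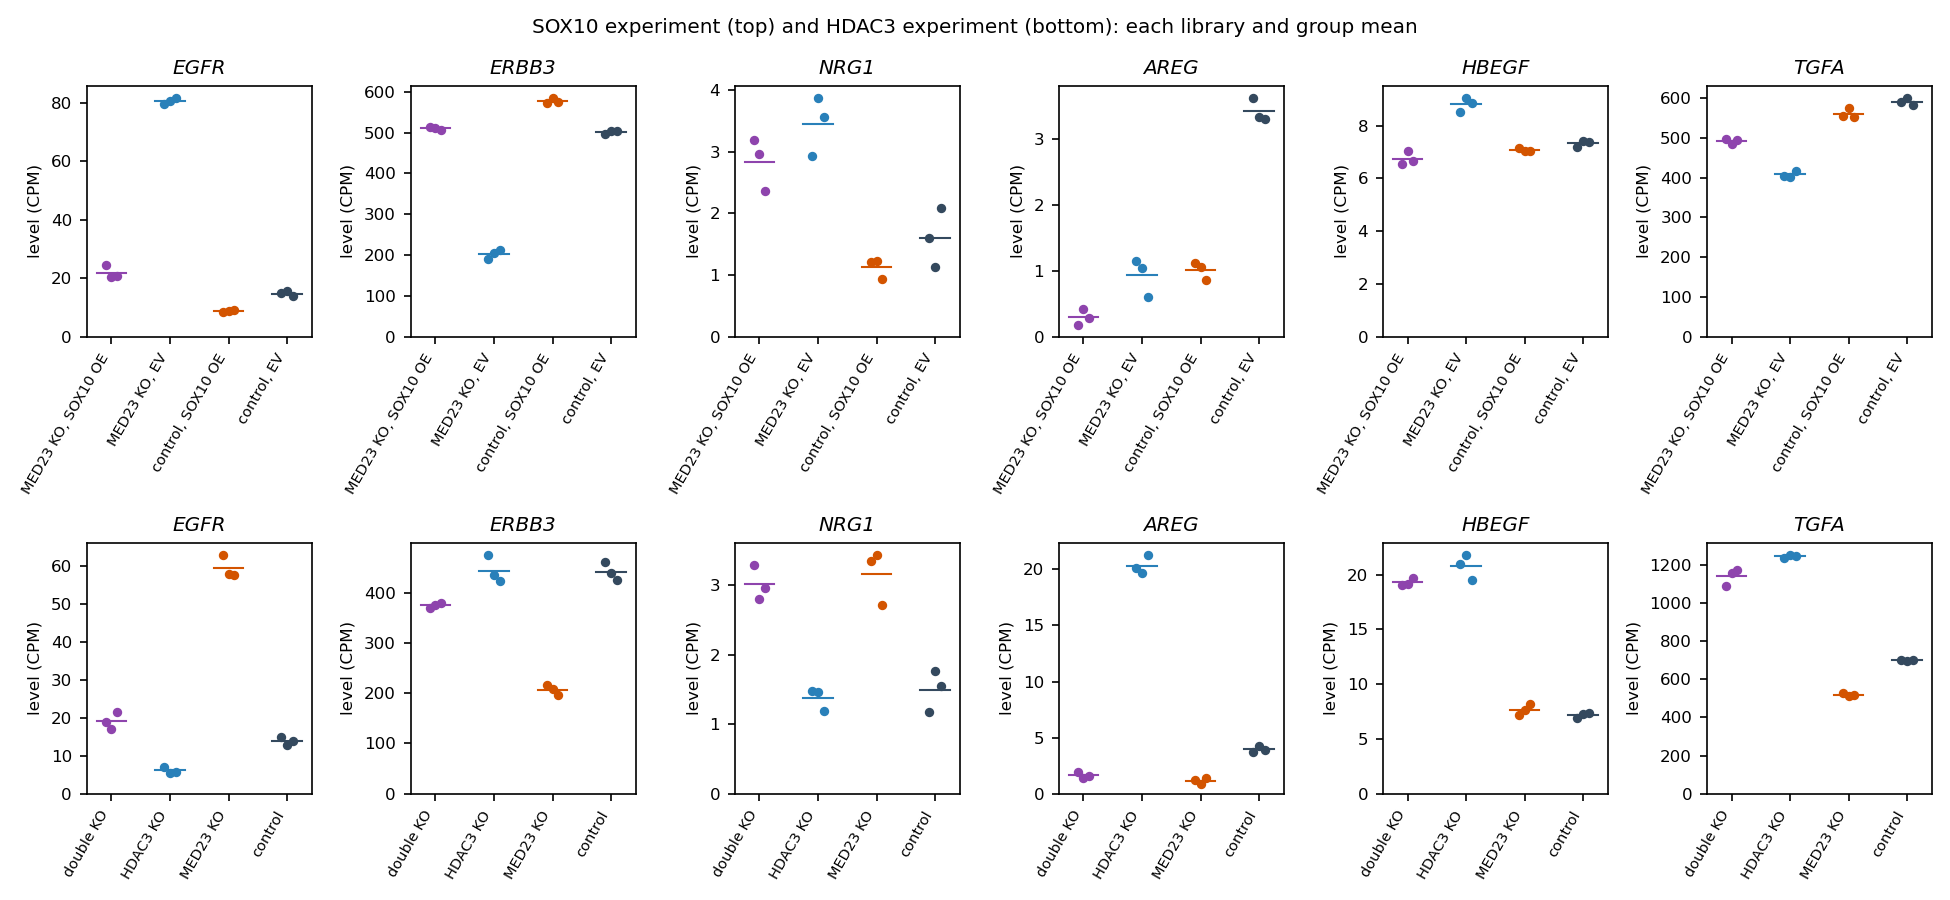
CPM (linear axis from 0) of 6 genes in each library of the SOX10 experiment (top) and the HDAC3 experiment (bottom), with lines at group means. In MED23 knockout cells, EGFR is lower and ERBB3 higher with SOX10 overexpression, and in the HDAC3 experiment AREG is highest with HDAC3 knockout alone.

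Of 24 further genes of the pathway (other ligands, release proteases, inhibitors, adaptors), 22 were tested. With MED12, MED19 and MED23 knockout in DMSO 0 were called, where 15.6%, 6.30% and 6.79% of all genes were called. By edgeR 18, 12 and 14 had an adjusted p under 0.05, with changes under 2-fold. At that p limit, whatever the fold, 54.9%, 40.6% and 36.9% of all genes tested passed. Vemurafenib in control cells changed 6 of the 22, no larger a share than the 29.7% of all genes. EGF (a ligand of EGFR), RHBDF1 (a regulator of the protease that releases ligands), GRB7, GAB1 and PIK3R1 (adaptors) rose and ERRFI1, a feedback inhibitor of EGFR, fell. ERRFI1 had 54.9 CPM with the drug and 293 CPM with DMSO (-2.41 ± 0.03 in log2, adjusted p = 1.83e-48). GAB1, a docking protein, had 49.1 CPM with the drug and 12.8 CPM with DMSO (1.94 ± 0.06 in log2). The drug changed 4, 5 and 6 of the 22 in MED12, MED19 and MED23 knockout cells, where 15.7%, 25.6% and 25.6% of all genes were called: EGF, NRG4 (a neuregulin) and GRB7 rose and ERRFI1 fell in all 3, GAB1 rose in MED19, and CBLB (a ubiquitin ligase that turns receptors over) and PIK3R1 rose in MED23 knockout cells.

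With the drug present, MED12 knockout changed 6 of the 22 relative to control cells with the drug, where 21.0% of all genes were called. The neuregulins NRG2 (1.15 ± 0.07) and NRG4 (1.74 ± 0.26) and the inhibitor ERRFI1 (1.20 ± 0.03) rose, and RHBDF1 (-1.07 ± 0.04), GAB1 (-1.43 ± 0.05) and PIK3R1, a regulatory subunit of phosphoinositide 3-kinase (-1.92 ± 0.03), fell. MED19 knockout changed 1, where 8.11% were called, with ERRFI1 higher (1.07 ± 0.03). MED23 knockout changed 4, where 11.6% were called: NRG4 (1.39 ± 0.27), LRIG3 (1.23 ± 0.04) and GRB7 (1.67 ± 0.19) rose and GAB1 (-1.10 ± 0.05) fell. The response to the drug differed from that of control cells for 5, 1 and 4 of the 22 with MED12, MED19 and MED23 knockout, where 14.7%, 5.13% and 6.35% were called. The difference was positive for NRG4 with all 3, for LRIG3 with MED12 and MED23 and for ERRFI1 with MED12 knockout, and negative for GAB1 with MED12 and MED23, for PIK3R1 with MED12 and for the receptor inhibitor LRIG1 with MED23 knockout. In the SOX10 and HDAC3 experiments the calls were limited to GRB7, at no more than 0.771 CPM in any group mean, and NRG2, which fell with HDAC3 knockout in MED23 knockout cells (-1.01 ± 0.12).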

How the data were processed

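Poly(A) RNA of A375 cells was sequenced with a stranded mRNA kit, per the labels' protocols. The authors deposited, per experiment, a table of read counts for each gene. HISAT2 (alignment, build hg38) and HTSeq (counting) are named in the submitters' processing notes. The sources used here give no versions, annotation, strand setting or handling of reads with several matches. All 66 columns were mapped to samples, 15 under a name other than the title.

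Symbols, positions and exon lengths came from GENCODE 29, to which 58676 IDs matched. Each of the 3 experiments was fitted separately over all its groups with edgeR 4.0.16 in R 4.3.3 (filterByExpr with minimum count 10 and minimum total 15, TMM scaling, quasi-likelihood test, 1 mean per group, both guides weighted equally). The SE was taken as the size of a log2 fold change over the root of its F statistic. Calls needed a Benjamini-Hochberg adjusted p under 0.05 over all genes tested and a 2-fold change. CPM is counts per M of the TMM-scaled library size, and RPKM is CPM per kb of exon. The procedure was tested on simulated data. Averaged over well-counted genes, the variance between 2 replicate libraries was 1.51 to 26.18 times that of counting noise, so none was treated as a duplicate. Intervals of counting error are not given, since all values have replicates.

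The named genes are all 10 receptors and ligands, the targeted genes, those of 24 pathway genes that passed, and the 3 genes most like the 2 members with the widest range of group means among genes of mean log2 CPM 2 or more (AREG, below that level, was passed over). Members and lists were chosen with earlier results of these data known. Alternatives were DESeq2 size factors, no low-count filter, the Wald test of DESeq2 1.42.0, a fit of only the groups compared, a replicate block, each guide alone and leaving out each replicate number. Whether equal replicate numbers pair libraries was checked from the correlation of their deviations from group means. For HDAC3 knockout in MED23 knockout cells all 3 pairs lay above the limit set, 0.1 (0.152 to 0.332). Libraries of unlike number were not compared, so pairing is not established. Reported values come from the fit without the replicate block, and the block changed no call there. In the other comparisons at least 1 pair lay below 0.1.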

Additional observations from a re-analysis of the deposited data

Results flagged for a closer look

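For 12 pairs of gene and interaction, the response in one background differed from that in another by a test of the difference itself (edgeR's quasi-likelihood test, Benjamini-Hochberg adjusted over all genes), and values are differences of log2 fold changes. The response of AREG to vemurafenib differed from that of control cells by 3.56 ± 0.41 (adjusted p = 1.8e-10) with MED12, 2.16 ± 0.45 (adjusted p = 0.000131) with MED19 and 2.40 ± 0.52 (adjusted p = 0.000177) with MED23 knockout. TGFA differed by 1.73 ± 0.04 (adjusted p = 4.86e-36) with MED12 and 1.08 ± 0.04 (adjusted p = 4.13e-27) with MED19 knockout. EGFR differed by 1.36 ± 0.07 (adjusted p = 1.32e-23), BTC by -1.36 ± 0.20 (adjusted p = 6.08e-08) and ERBB4 by -1.83 ± 0.53 (adjusted p = 0.00302) with MED12 knockout, and HBEGF by -1.18 ± 0.09 (adjusted p = 3.64e-15) with MED19 knockout. The AREG values rest on 15 reads in control libraries with the drug, and with MED23 knockout on few reads in the knockout libraries too. The ERBB4 call was lost without replicate 1. The TGFA difference with MED19 knockout was under 2-fold with guide 2 alone.

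The response to SOX10 overexpression in MED23 knockout cells differed from that in control cells by -1.12 ± 0.09 (adjusted p = 3.12e-10) for EGFR and 1.13 ± 0.05 (adjusted p = 3.57e-17) for ERBB3. SOX10 itself stood at 174.3% of the empty-vector level in MED23 knockout cells and at 114.3% in control cells, so unlike rises of SOX10 are compared. The response of AREG to HDAC3 knockout in MED23 knockout cells differed from that in control cells by -1.89 ± 0.20 (adjusted p = 2.25e-07).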

How the results depend on the processing

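Of the counts of the 10 genes past the threshold in 25 comparisons, 220 of 224 alternative values lay within 1.5 times the reported count. The exceptions were MED19 knockout in DMSO with guide 2 alone (2 genes, against 4), MED23 knockout cells with SOX10 against control cells with the empty vector (2 genes with no low-count filter, and 1 to 2 when 1 replicate number was left out), and the HDAC3 interaction (1 to 2 when 1 replicate number was left out). Of 2136 alternative values of single genes, 17 lost and 6 gained a call, and none reversed a called direction. DESeq2 size factors, the Wald test of DESeq2 and fitting only the groups compared changed no call where they gave a value. With the replicate block the counts were as reported, for example 8 genes for vemurafenib in control cells. They were 3 for HDAC3 knockout in MED23 knockout cells, the only comparison in which all same-numbered pairs passed the limit of correlation. The block changed no call. Changes in ERBB4 and EREG rest on few reads. For them, for AREG with vemurafenib and for AREG and BTC in the SOX10 experiment, depth limits the precision. DESeq2 size factors moved the median of all genes by at most 0.04 in log2.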
